A study of Equus caballus with 15 samples.

Results

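Interleukin-10 (IL-10) is a cytokine of macrophages and lymphocytes that limits inflammatory gene expression, and its gene family holds further cytokines that share receptor chains with it. Of the 16932 genes listed in the data, 6 were chosen by gene symbol: the ligands IL10, IL19, IL20 and IL24 and the IL-10 receptor chains IL10RA and IL10RB. All 6 were present in the table.

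IL-10 binds a receptor made of IL10RA, the ligand-binding chain, and IL10RB, a chain also used by the receptors for IL-22, IL-26 and the lambda interferons. The receptor activates the kinases JAK1 and TYK2 and the transcription factor STAT3, and in macrophages this lowers the transcription of many cytokines and chemokines, while SOCS3 and scavenger receptors such as CD163 are raised. IL-19, IL-20 and IL-24 signal through receptors that contain IL20RB, and they are best known for their action on skin and other epithelial cells.

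The data came from equine macrophages grown from peripheral blood mononuclear cells of 2 horses over 5 days with M-CSF at 30 ng/ml, and polyadenylated RNA was sequenced in 3 libraries for each of 5 conditions. The labels do not state the macrophage horse of a library, and all titles start with the same code. Untreated macrophages received M-CSF alone. The other cultures were given IL-1ß at 10 ng/ml for 24 h, either by itself or together with an orthobiologic therapy (OT) that made up 25% of the medium. One OT was medium conditioned by mesenchymal stromal cells (MSC-CM), another was lysed platelet rich plasma (PRP lysate), and the third was autologous conditioned serum (ACS), made by incubating whole blood so that cytokine antagonists accumulate in the serum. Each OT was prepared from the same 3 donor horses, without a statement of which replicate number stands for which horse, whereas the IL-1ß and the untreated libraries were described as technical replicates of the macrophages, so that for the latter pair the spread between libraries may be technical. No condition received an OT without IL-1ß. The labels place the harvest directly after the 24 h of treatment, while the study's methods describe further culture, so the time of harvest is uncertain.

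Expression was deposited as CPM, the reads counted on a gene scaled to the depth of its library. The libraries held 28410735 to 47894069 reads on genes, so that 3 reads, the limit that a count of 0 allows, equalled 0.0626 to 0.106 CPM. On the first principal component, which carried 55.4% of the variance of all tested genes, IL-1ß replicate 3 lay at -103 and PRP lysate replicate 1 at -51.7, away from the other 13 libraries (-20.7 to 26.6). Among the markers of the labelled cell type, CD68 (1340 to 2157 CPM) and the mannose receptor MRC1 (515 to 3394 CPM) were abundant. CD14 (1.38 to 4.32 CPM) and ITGAM (1.10 to 3.47 CPM), 2 other myeloid markers, had low values. All 5 T cell markers were detected in every condition, with CD3E between 140 and 520 CPM, so the cultures held T cell RNA as well. In such bulk samples fewer cells of a type and less RNA per cell cannot be told apart.

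The 4 ligand genes lay in 1 cluster on chromosome 5 of the EquCab3.0 build. IL10 (ENSECAG00000009179) spanned 2994056 to 2998204, IL19 (ENSECAG00000028053) 3050142 to 3055979, IL20 (ENSECAG00000009603) 3069684 to 3075277 and IL24 (ENSECAG00000012240) 3116523 to 3121458. No other listed gene lay between them. The gene listed before IL10 was MAPKAPK2, a kinase of the p38 pathway, at a distance of 29891 bp. The gene listed after IL24 was FCMR, the receptor for IgM, 647 bp away. IL10RA (ENSECAG00000015030) lay on chromosome 7 from 26456347 to 26467678, between TMPRSS13 and SMIM35. IL10RB (ENSECAG00000007359) lay on chromosome 26 from 31153252 to 31176140, between the interferon receptor genes IFNAR2, 2078 bp before it, and IFNAR1, 36202 bp after it. MAPKAPK2 had 236 to 297 CPM per library and FCMR 3.30 to 17.4 CPM. The listed spans of the members overlapped 0 other listed genes. In the RefSeq table of another equine assembly, where 5 of the 6 members were found by symbol, the order of the cluster from MAPKAPK2 to FCMR was the same, but the spans of IL24 and FCMR overlapped by 163 bp, so that reads at the end of IL24 are uncertain.

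IL10 was expressed at a low level in every library, and the level was highest in untreated macrophages and lowest with ACS. The untreated libraries had 14.1, 11.8 and 10.6 CPM of IL10, and the libraries with IL-1ß alone 8.56, 9.58 and 12.1 CPM. IL10 stood at 10.8, 7.51 and 9.31 CPM with MSC-CM and at 11.1, 7.63 and 9.19 CPM with PRP lysate. The ACS libraries had 7.94, 8.45 and 5.49 CPM of IL10. Each ACS library therefore lay below each untreated library and below each library with IL-1ß alone, in the latter case by the narrow gap between 8.45 and 8.56 CPM, while every other pair of conditions overlapped. These values rested on 261 to 551 reads per library, which gives a counting error of 4.26% to 6.19%, less than the spread between the libraries of a condition.

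The means of IL10 were 12.2 ± 1.75 CPM in untreated macrophages, 10.1 ± 1.82 CPM with IL-1ß, 9.30 ± 1.74 CPM with PRP lysate, 9.19 ± 1.63 CPM with MSC-CM and 7.29 ± 1.58 CPM with ACS (SD, n = 3 each). No neighbours in this order lay apart. Differences between conditions were tested for the 11628 genes whose mean reached 1 CPM, using limma on log2(CPM + 1), and a gene was called changed at a Benjamini-Hochberg adjusted p of at most 0.05 with a change of at least 2-fold. IL10 was not called in any of the 10 comparisons, in which the smallest adjusted p of limma was 0.260.

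Among the 3 members tested with limma, the largest difference on the log2(CPM + 1) scale was that of IL10 between ACS and untreated macrophages. The log2 fold change was -0.68 (SE 0.21, 95% interval -1.13 to -0.22), with an unadjusted limma p of 0.00698 and an adjusted p of 0.298. The groups lay apart, as they did for 26.3% of all tested genes in this comparison, and 0.37% of all genes were called. Over the other settings the log2 fold change was between -0.81 and -0.51, and the adjusted p of the respective tool between 0.0834 and 0.998.

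IL10 with ACS differed from IL10 with IL-1ß alone by a log2 fold change of -0.42 (95% interval -0.88 to 0.03, limma adjusted p = 0.260). In that comparison the groups of 26.2% of all genes lay apart and 2.21% were called. The addition of IL-1ß to untreated macrophages went with a difference of -0.25 on the log2 scale (95% interval -0.71 to 0.20, limma adjusted p = 0.601), against 0.292% of all genes called. MSC-CM and PRP lysate differed from IL-1ß alone by -0.12 (95% interval -0.58 to 0.34) and -0.11 (95% interval -0.56 to 0.35) in IL10, and 0% and 3.09% of all genes were called in these comparisons. Both signs depended on single libraries: the differences were 0.0070 and 0.021 without IL-1ß replicate 3, and 0.0038 without MSC-CM replicate 2 and 0.015 without PRP lysate replicate 2. The 3 comparisons of an OT with IL-1ß use the same 3 IL-1ß libraries and are not independent of each other.

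**Figure D1:**
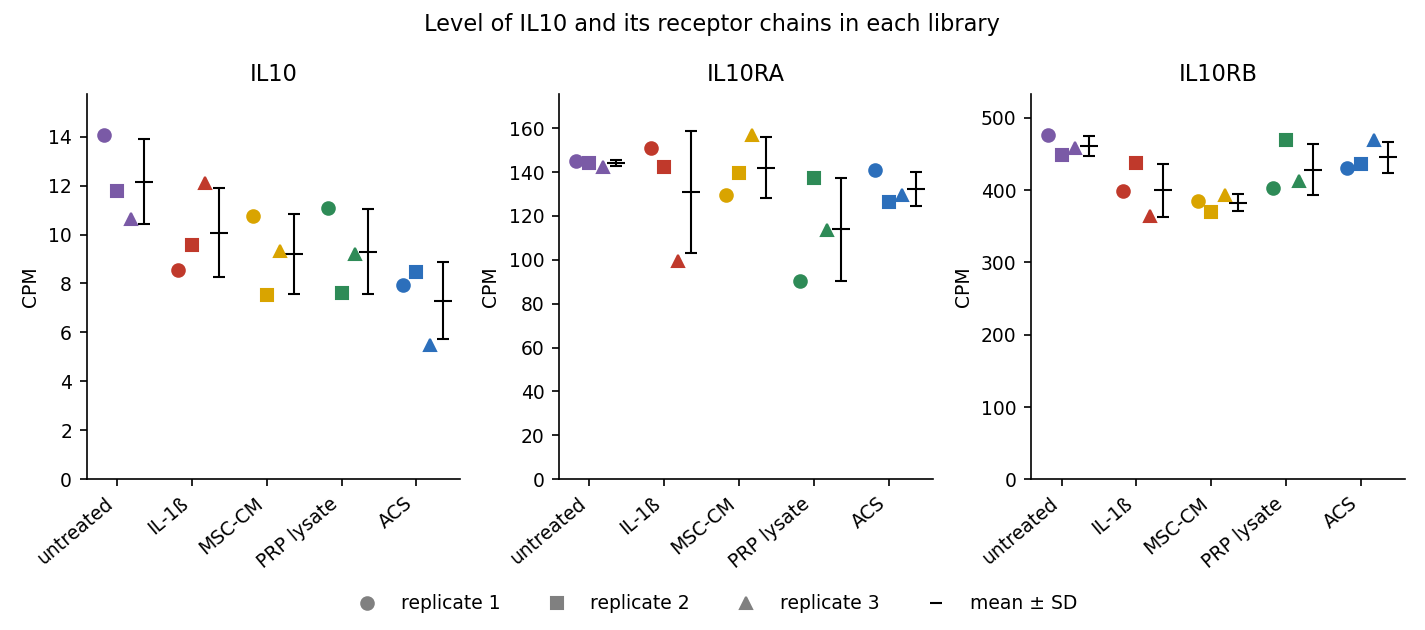
Level of IL10, IL10RA and IL10RB in CPM (vertical axes from 0) in the 15 libraries, with the replicate shown by the symbol and the mean ± SD of the 3 libraries of each condition in black. IL10 was between 5.49 and 8.45 CPM in the ACS libraries and between 10.6 and 14.1 CPM in the untreated libraries, and the lowest IL10RA levels were those of PRP lysate replicate 1 and IL-1ß replicate 3.

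IL19, IL20 and IL24 were close to the limit of detection in all 5 conditions. Together they had 144 reads in the 15 libraries, and 23 of their 45 values were 0. IL19, a cytokine made by activated monocytes, had 7 reads in untreated replicate 1, 15 in IL-1ß replicate 2, 1 in MSC-CM replicate 1, 11 in PRP lysate replicate 1 and 3 in PRP lysate replicate 2, and 0 in the remaining 10 libraries. No ACS library held a read of IL19. The libraries with reads came from 4 conditions and in no condition did all 3 libraries hold one.

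IL20, a keratinocyte-directed cytokine, was detected in all 3 untreated libraries, with 3, 2 and 4 reads. With IL-1ß alone it had 1, 0 and 0 reads, with MSC-CM 0, 0 and 5, with PRP lysate 0, 10 and 8, and with ACS 0, 1 and 0 reads. The untreated libraries thus lay above those with IL-1ß alone and those with ACS, which were the only non-overlapping pairs among the 30 comparisons of the 3 genes. An exact two-sided permutation test of 3 against 3 libraries gave p = 0.1 for both, the smallest value that it can give, and an adjusted p of 1 over the 30 tests. At 0 to 4 reads per library a difference between these conditions was not detectable at this depth, and no fold change is given.

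IL24, a cytokine of the same subfamily, had 10, 0 and 0 reads in untreated macrophages and 0, 8 and 13 with IL-1ß alone. It had 2, 12 and 5 reads with MSC-CM, 0, 0 and 10 with PRP lysate and 0, 8 and 5 with ACS. MSC-CM was the only condition in which every library held a read of IL24, and its range overlapped that of each other condition. The highest level of any of these 3 genes was 0.450 CPM, for IL24 in IL-1ß replicate 3.

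**Figure D2:**
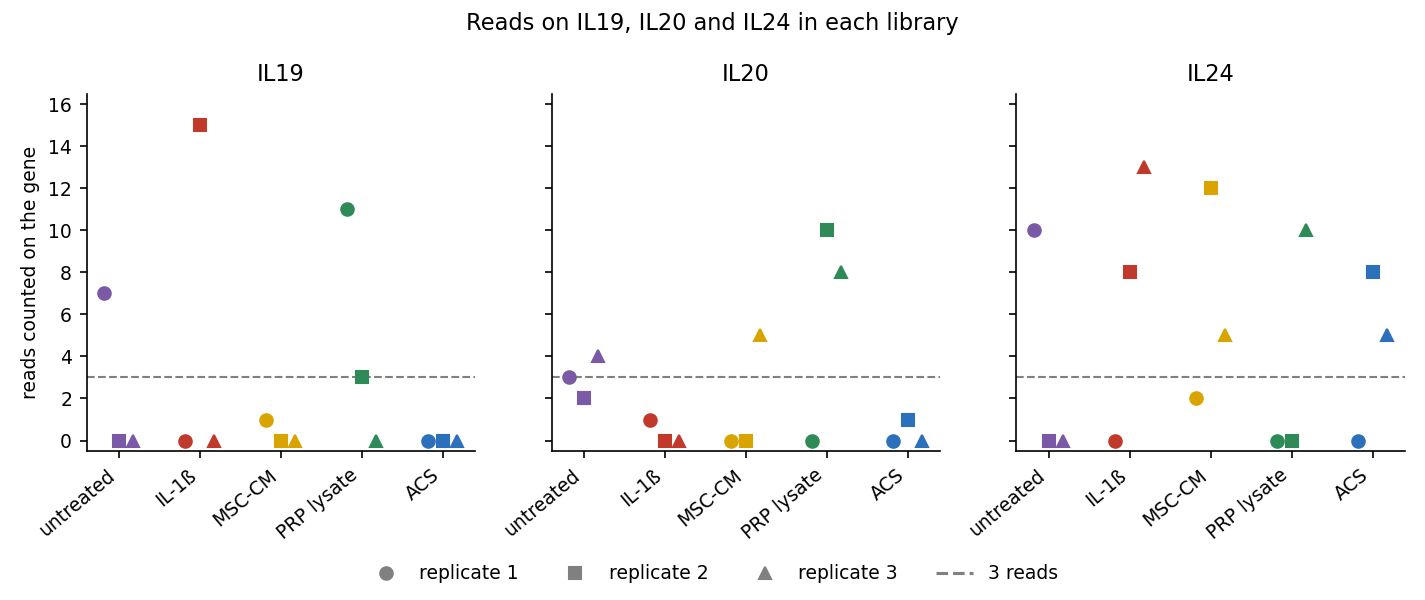
Reads counted on IL19, IL20 and IL24 (vertical axis) in the 15 libraries by condition, with the replicate shown by the symbol and a dashed line at 3 reads. Of the 45 values 23 were 0, and the highest was 15 reads of IL19 in IL-1ß replicate 2.

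IL10RA, the chain that binds IL-10, was readily detected in all libraries, with 2874 to 6706 reads each, and 8 of the 10 pairs of conditions overlapped. The untreated libraries had 145, 144 and 142 CPM of IL10RA and those with IL-1ß alone 151, 142 and 99.4 CPM. IL10RA was at 129, 140 and 157 CPM with MSC-CM and at 141, 126 and 130 CPM with ACS. The PRP lysate libraries had 90.5, 137.5 and 114 CPM of IL10RA. The 2 lowest values were those of PRP lysate replicate 1 and IL-1ß replicate 3, the libraries that stood apart from the others across all genes.

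The mean of IL10RA was 144 ± 1.38 CPM in untreated macrophages, 142 ± 13.9 CPM with MSC-CM, 132 ± 7.73 CPM with ACS, 131 ± 27.7 CPM with IL-1ß alone and 114 ± 23.5 CPM with PRP lysate (SD, n = 3 each), and neighbours in this order overlapped. Its lowest and highest condition, PRP lysate and untreated, did not overlap, and the log2 fold change was -0.36 (SE 0.17, 95% interval -0.73 to 0.02, limma adjusted p = 0.423). In this comparison 18.6% of all genes did not overlap and 1.6% were called. Without PRP lysate replicate 1 the difference was -0.20. PRP lysate against MSC-CM gave -0.33 (95% interval -0.71 to 0.04, limma adjusted p = 0.439), where 2.61% of all genes were called, and IL10RA was lower with PRP lysate in each of the 3 same-numbered pairs. With the replicate number as a block (replicate block) the adjusted p of this difference was 0.705, and 171 genes were called in place of 304. ACS also lay below untreated macrophages in IL10RA without overlap, with 141 CPM as its highest value against 142 CPM as the lowest untreated value, and the difference was -0.12 (95% interval -0.50 to 0.25), in a comparison where 26.3% of all genes did not overlap.

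Against IL-1ß alone, IL10RA differed by 0.14 with MSC-CM (95% interval -0.24 to 0.51), by -0.20 with PRP lysate (95% interval -0.57 to 0.18) and by 0.04 with ACS (95% interval -0.34 to 0.41) on the log2 scale. The signs for MSC-CM and ACS were not stable: with RLE size factors, which shifted the median of all genes by -0.16 and -0.11 in these comparisons, the differences were -0.04 and -0.09. IL-1ß alone against untreated gave -0.16 (95% interval -0.53 to 0.21), and 0.03 without IL-1ß replicate 3.

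IL10RB, the chain shared with other receptors of the family, varied less between replicates than most genes. The untreated libraries had 477, 449 and 459 CPM of IL10RB, those with IL-1ß alone 399, 437 and 364 CPM, and those with MSC-CM 385, 370 and 394 CPM. With PRP lysate the values were 404, 469 and 413 CPM, and with ACS 430, 436 and 470 CPM. Untreated macrophages lay above both IL-1ß alone and MSC-CM in every library, and MSC-CM lay below PRP lysate and ACS in every library. The 10531 to 22504 reads per library give a counting error below 1%, from 0.667% to 0.974%.

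The mean of IL10RB was 461 ± 14.2 CPM in untreated macrophages, 446 ± 21.3 CPM with ACS, 428 ± 35.4 CPM with PRP lysate, 400 ± 36.6 CPM with IL-1ß alone and 383 ± 12.2 CPM with MSC-CM (SD, n = 3 each). Neighbours in this order overlapped. MSC-CM against untreated macrophages gave a log2 fold change of -0.27 (SE 0.10, 95% interval -0.49 to -0.05), with an unadjusted limma p of 0.0205 and an adjusted p of 0.206. It is the only comparison of IL10RB with an interval that leaves out 0, in a comparison where 30.8% of all genes did not overlap and 0.662% were called. DESeq2 on the recovered reads gave an adjusted p of 0.0139 with a change that stayed under 2-fold (log2 fold change -0.39). IL-1ß alone against untreated gave -0.21 in IL10RB (95% interval -0.43 to 0.01, limma adjusted p = 0.411), with 16.2% of all genes not overlapping.

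ACS against MSC-CM differed by 0.22 in IL10RB (95% interval -0.0022 to 0.44, limma adjusted p = 0.377), where 35.1% of all genes did not overlap and 1.23% were called. PRP lysate against MSC-CM differed by 0.16 (95% interval -0.06 to 0.38, limma adjusted p = 0.583), where 19.4% did not overlap. Against IL-1ß alone the differences of IL10RB were -0.06 with MSC-CM (95% interval -0.28 to 0.16), 0.10 with PRP lysate (95% interval -0.12 to 0.32) and 0.16 with ACS (95% interval -0.06 to 0.38).

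Of the 3 tested members 0 were called changed in each of the 10 comparisons, and 2 of the 30 tests had an unadjusted p of at most 0.05, beside 12.6% of the tests of all genes. With edgeR and with DESeq2 on the recovered reads 0 members were called as well. ACS against PRP lysate, in which 0.0946% of all genes were called, gave limma adjusted p-values of 0.842 to 0.854 for the 3 genes. The 95% intervals were not adjusted for their number and rest on the spread between libraries, which may be technical for IL-1ß alone and untreated. Of the 30 intervals, 29 lay within a 2-fold change either way on the log2(CPM + 1) scale, which understates changes in CPM at the level of IL10. The interval of IL10 between ACS and untreated macrophages reached from 0.456 to 0.859 as a ratio of CPM + 1. In 8 of the 30 comparisons the groups did not overlap, beside 21.2% of the comparisons of all genes, 2 of them for IL10, 2 for IL10RA and 4 for IL10RB.

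**Figure D3:**
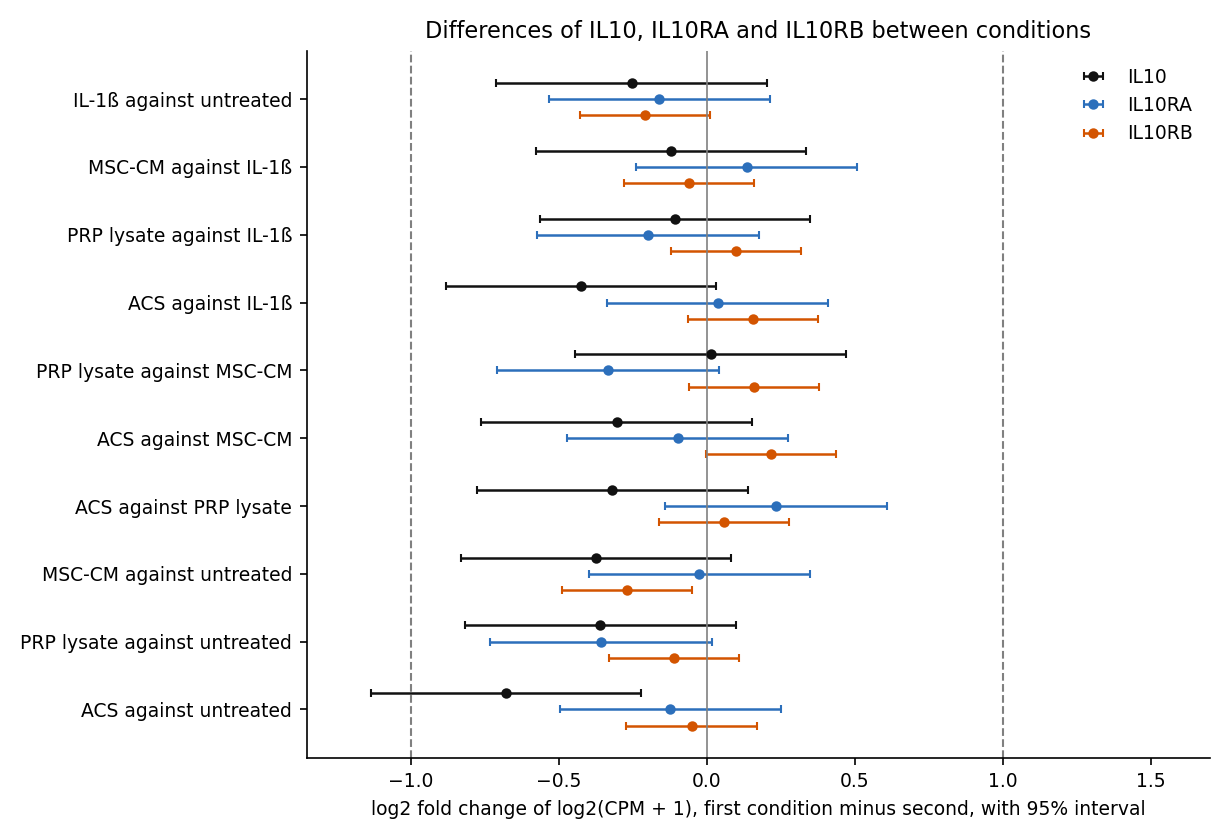
Log2 fold change of IL10, IL10RA and IL10RB in the 10 comparisons (first condition minus second, on the log2(CPM + 1) scale) with 95% intervals from limma, with dashed lines at a 2-fold change. The interval of IL10 between ACS and untreated macrophages, -1.13 to -0.22, is the only one that crosses a dashed line.

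A test for any difference among the 5 conditions (limma's moderated F test) gave an unadjusted p of 0.0808 for IL10 (adjusted p = 0.342), 0.309 for IL10RA (adjusted p = 0.607) and 0.108 for IL10RB (adjusted p = 0.390). Of all genes 18.8% had an unadjusted p of at most 0.05 in this test and 5.4% passed after adjustment. The conditions accounted for 55.2% of the variance of IL10 across libraries, 35.2% of that of IL10RA and 65% of that of IL10RB, against a median of 35.3% over all tested genes. The SD between replicates was 0.24 for IL10, 0.21 for IL10RA and 0.09 for IL10RB on the log2 scale, with a median of 0.31 over all tested genes. Only 1.45% of the tested genes had a smaller replicate SD than IL10RB.

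IL10RB tended to be lower in libraries with more T cell marker RNA, and IL10RA to be higher in libraries with more macrophage marker RNA. The 5 T cell markers summed to 494 to 734 CPM in untreated libraries, 701 to 1389 CPM with IL-1ß alone, 981 to 1063 CPM with MSC-CM, 619 to 1441 CPM with PRP lysate and 597 to 758 CPM with ACS. The 9 macrophage markers in the table, of 10 on the list, summed to 1965 CPM in PRP lysate replicate 1, to 3250 CPM in IL-1ß replicate 3 and to between 3523 and 6239 CPM in the other libraries. IL-1ß replicate 3 and PRP lysate replicate 1 thus had the highest T cell sums, the lowest macrophage sums, the lowest IL10RA levels and, within their conditions, the highest IL10 levels.

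Over the 15 libraries IL10RA had a Pearson correlation of -0.63 with the T cell sum and of 0.85 with the macrophage sum. IL10RB had -0.77 with the T cell sum and 0.16 with the macrophage sum, and IL10 had 0.08 and 0.05. Without IL-1ß replicate 3 and PRP lysate replicate 1 the values were -0.06 and 0.60 for IL10RA, -0.75 and -0.21 for IL10RB and -0.28 and 0.57 for IL10, so that the relation of IL10RA to the T cell sum rested on these 2 libraries. These correlations describe libraries that share conditions and the same CPM scale, and the part of the cell mixture in the values of the members was not tested. Sums of 3 B cell markers (10.7 to 47.6 CPM), 3 NK cell markers (14.2 to 25.0 CPM) and 3 neutrophil markers (0 to 4.49 CPM) were low. Those of 2 platelet markers (0.553 to 3.34 CPM) and 3 mesenchymal stromal markers (0 to 2.60 CPM) were near 0. The 3 dendritic cell markers summed to 145 to 343 CPM, mostly from CCR7. The 3 endothelial markers, of which PECAM1 is also expressed by leukocytes, summed to 163 to 289 CPM in untreated libraries, 245 to 502 CPM with IL-1ß alone, 176 to 394 CPM with MSC-CM, 50.7 to 79.7 CPM with PRP lysate and 99.1 to 129 CPM with ACS. PECAM1 made up most of these sums, and VWF, a defining endothelial marker, was at 0 in all PRP lysate and ACS libraries and at a mean of at most 0.0753 CPM elsewhere. The remaining marker, CDH5, had a mean of 9.53 CPM in untreated libraries and 2.04 CPM with IL-1ß alone. It was at 2.76 CPM with MSC-CM, 6.13 CPM with PRP lysate and 2.44 CPM with ACS.

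**Figure D4:**
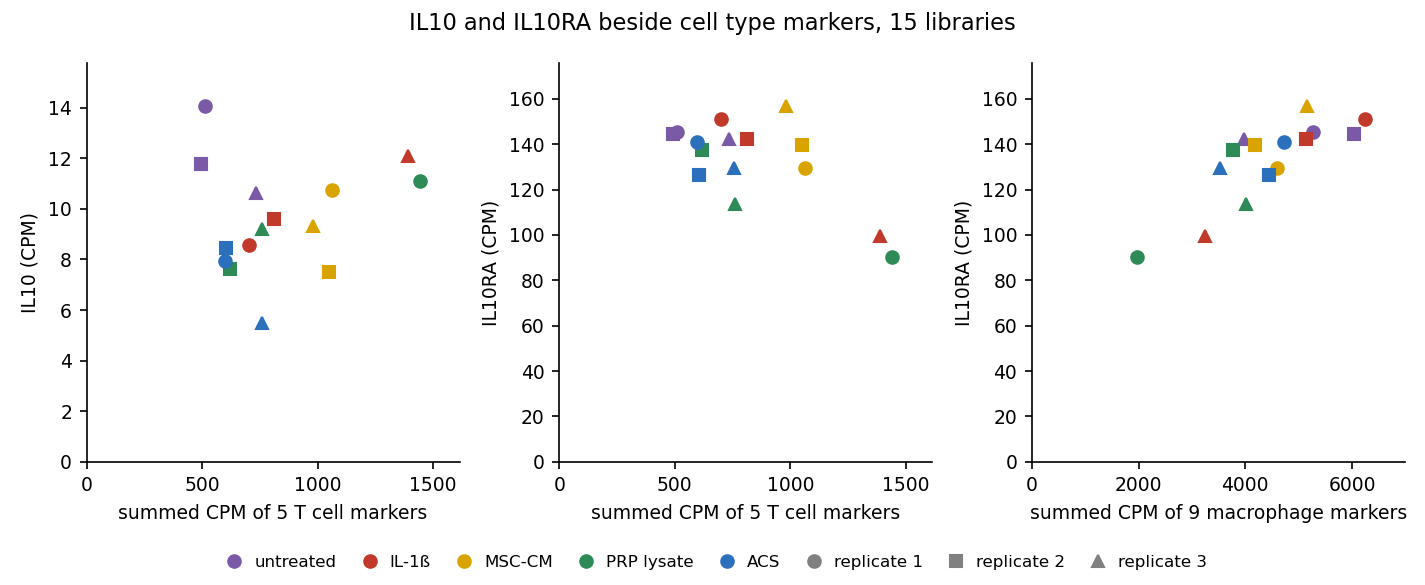
IL10 and IL10RA in CPM (vertical axes) against the summed CPM of 5 T cell markers, and IL10RA against that of 9 macrophage markers, for the 15 libraries, with conditions by colour and replicates by symbol. IL10RA was lowest in PRP lysate replicate 1 and IL-1ß replicate 3, which had T cell sums of 1441 and 1389 CPM.

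Of the 10 ligand genes of the wider family, 6 were analysed and 3 had a mean of at least 1 CPM: IL10, IL22 and IL26. Of these 0 were called in any of the 10 comparisons with limma or edgeR, and at most 2 had an unadjusted limma p of at most 0.05, beside 0% to 3.09% of all tested genes called by limma in a comparison and 12.6% of all tests with such an unadjusted p. IL22, a lymphocyte cytokine that uses IL10RB, had the largest difference. Its level was 4.60, 18.8 and 22.3 CPM in untreated libraries in ascending order, 11.5, 16.6 and 35.3 CPM with IL-1ß alone and 10.5, 12.7 and 24.3 CPM with MSC-CM. With PRP lysate IL22 was at 35.1, 43.5 and 46.0 CPM and with ACS at 46.4, 48.3 and 67.1 CPM, so that each ACS library lay above every untreated, IL-1ß and MSC-CM library, in comparisons where 26.3%, 26.2% and 35.1% of all genes did not overlap. Each PRP lysate library likewise lay above every untreated and MSC-CM library (log2 fold changes 1.62 and 1.41), where 18.6% and 19.4% of all genes did not overlap.

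ACS against IL-1ß alone gave a log2 fold change of 1.44 for IL22 (SE 0.50, limma adjusted p = 0.148), and leaving out IL-1ß replicate 1 brought it past the threshold (1.86, adjusted p = 0.0429). ACS against untreated gave 1.98 (limma adjusted p = 0.152), which was called by DESeq2 (1.74, adjusted p = 0.0425) and when only these 2 conditions were fitted (adjusted p = 0.0431). ACS against MSC-CM gave 1.77 (limma adjusted p = 0.110), likewise called by DESeq2 (1.80, adjusted p = 0.0140) and when only these 2 conditions were fitted (adjusted p = 0.0050). In these 2 comparisons DESeq2 called 122 and 292 genes in all, and the fits of only 2 conditions 130 and 323, against 43 and 143 with limma on all 15 libraries. PRP lysate against IL-1ß alone gave 1.08 for IL22 (limma adjusted p = 0.290). IL26, another lymphocyte cytokine, had condition means of 1.51 to 3.16 CPM.

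The class II cytokine receptors, to which IL10RA and IL10RB belong, had 12 genes on the list, of which 11 were tested. In comparisons of an OT with IL-1ß alone limma called 1 of them, F3, tissue factor, which starts coagulation and shares the receptor fold. It was called with PRP lysate and ACS, where 3.09% and 2.21% of all tested genes were called, and 0 of the list were called with MSC-CM. F3 was at 61.4 ± 18.9 CPM in untreated macrophages, and neither PRP lysate nor ACS against untreated was called for it. F3 rose from 25.7 ± 4.60 CPM with IL-1ß to 109 ± 49.9 CPM with PRP lysate (log2 fold change 1.93, limma adjusted p = 0.00404) and to 114 ± 23.9 CPM with ACS (log2 fold change 2.10, limma adjusted p = 0.00514). In the former comparison the call was lost when only these 2 conditions were fitted (adjusted p = 0.140). The median log2 fold change of the list was -0.07 with PRP lysate and 0.11 with ACS, beside 0.11 and 0.13 over all tested genes.

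IFNLR1, which pairs with IL10RB to bind lambda interferons, was at 2.30 ± 0.42 CPM with IL-1ß alone and at 5.62 ± 1.26 CPM with ACS (SD, n = 3). The log2 fold change was 0.99 with a limma adjusted p of 0.0152, just short of 2-fold, whereas edgeR (1.17, adjusted p = 0.0311) and DESeq2 (1.16, adjusted p = 0.000462) called it. The adjusted p of limma was 0.170 when only these 2 conditions were fitted, 0.0566 without ACS replicate 2 and 0.0797 without ACS replicate 3. With a pseudocount of 0.1 limma called IFNLR1. IL20RB, a chain of the receptors for IL-19, IL-20 and IL-24, had condition means of 29.1 to 41.4 CPM, and IL20RA, its partner, 3.25 to 5.28 CPM. IL22RA1, the signaling chain of the IL-22 receptor, was at 0 in all IL-1ß libraries and reached 0.334 CPM at most. IL22RA2, a soluble receptor that binds IL-22, had condition means of 6.06 to 9.40 CPM, and neither it nor IL20RA or IL20RB was called by limma, edgeR or DESeq2. IL22RA1 was under the filter of 1 CPM and was not tested with limma.

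Of 10 genes of IL-10 receptor signaling, 0 were called in any of the 10 comparisons by limma, edgeR or DESeq2, and between 0 and 3 had an unadjusted limma p of at most 0.05. Of all tested genes limma called 0% to 3.09% in a comparison, and 12.6% of all tests had an unadjusted p of at most 0.05. JAK1 had condition means of 303 to 410.4 CPM, TYK2 of 121 to 164 CPM, and STAT3 of 191 to 266 CPM. SOCS3, the feedback inhibitor that IL-10 induces, was at 163 ± 42.1 CPM with IL-1ß alone, 160 ± 7.12 CPM with MSC-CM, 202 ± 48.5 CPM with PRP lysate and 211 ± 29.8 CPM with ACS. The difference of SOCS3 from IL-1ß alone was 0.39 on the log2 scale with ACS (95% interval -0.05 to 0.83, limma adjusted p = 0.271) and 0.31 with PRP lysate (95% interval -0.13 to 0.75, limma adjusted p = 0.482). The same difference of STAT3 was 0.64 with ACS (95% interval -0.10 to 1.38). Without IL-1ß replicate 3 these differences were 0.18 and 0.10 for SOCS3 with ACS and PRP lysate and 0.13 for STAT3. Relative to IL-1ß alone, the median of this list stood at 0.29 for MSC-CM, 0.21 for PRP lysate and 0.29 for ACS, above the 0.16, 0.11 and 0.13 of all tested genes.

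Genes known to be raised by IL-10 in macrophages were 18 on the list, of which 14 were tested. Against IL-1ß alone 0 were called with MSC-CM, 3 fell with PRP lysate and 2 fell with ACS, and no member was called higher by limma in these comparisons. Of all tested genes 0%, 3.09% and 2.21% were called in them. CD163, the haemoglobin scavenger receptor, was at 365, 638 and 685 CPM with IL-1ß alone in ascending order and at 7.34, 13.3 and 13.4 CPM with PRP lysate (log2 fold change -5.50, limma adjusted p = 9.04e-06). With ACS it was at 43.2, 58.6 and 92.0 CPM (log2 fold change -3.12, limma adjusted p = 0.00149), and CD163 is also 1 of the macrophage markers summed above. MERTK, a receptor for the uptake of dying cells, fell with PRP lysate (log2 fold change -2.69). In the same comparison 3 of the 9 macrophage markers, CD163 included, were called lower and their median was -1.08, beside 0.11 over all tested genes, and their part in the result was not tested. With ACS 1 of the 9 was called lower (median -0.21), and edgeR and DESeq2 both called 3 genes of the list with ACS, MERTK among them. Of all genes these tools called 242 and 574 in that comparison, against 257 with limma. DDIT4, a stress-induced inhibitor of mTOR, fell with PRP lysate (-1.84) and ACS (-2.06) and rose with IL-1ß over untreated macrophages (2.19, limma adjusted p = 0.00019), the last call being lost when only these 2 conditions were fitted (adjusted p = 0.0657). The median of the list was -0.03 with PRP lysate and 0.02 with ACS.

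Among 18 genes known to be lowered by IL-10, 16 were tested and moved in both directions. Against IL-1ß alone 3 rose and 1 fell with PRP lysate, 2 rose and 1 fell with ACS, and 0 were called with MSC-CM, beside 3.09%, 2.21% and 0% of all tested genes called. MSC-CM against IL-1ß alone gave 0 called genes on each of the 6 lists with limma, edgeR and DESeq2, and 0 to 4 a list at an unadjusted limma p of at most 0.05. TNF, the inflammatory cytokine, was at 23.9, 27.7 and 39.4 CPM with IL-1ß alone, at 112, 112 and 139 CPM with PRP lysate (log2 fold change 1.99, limma adjusted p = 0.000800) and at 76.8, 80.1 and 81.5 CPM with ACS (1.39, limma adjusted p = 0.0147). The chemokine CCL3 rose with both (1.87 and 1.38), and CSF2, the growth factor GM-CSF, with PRP lysate (1.82). IL6 went the other way, from 49.0 ± 9.91 CPM with IL-1ß alone to 9.45 ± 6.53 CPM with PRP lysate (log2 fold change -2.55, limma adjusted p = 0.0102) and 11.3 ± 5.82 CPM with ACS (-2.12, limma adjusted p = 0.0376).

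When only the 2 conditions compared were fitted, the calls of IL6 (adjusted p = 0.220) and CSF2 (adjusted p = 0.0828) with PRP lysate and those of IL6 (adjusted p = 0.0900) and TNF (adjusted p = 0.0638) with ACS were lost. The call of IL6 with ACS was also lost with a pseudocount of 0.1 (adjusted p = 0.0629) and with no filter (adjusted p = 0.0586). With ACS the call of IL6 was lost on leaving out any of 4 libraries (IL-1ß replicates 2 and 3, ACS replicates 2 and 3) and that of TNF on leaving out any of 3 (IL-1ß replicate 2, ACS replicates 2 and 3). CXCL10, an interferon-induced chemokine, fell with IL-1ß over untreated macrophages (log2 fold change -1.56, limma adjusted p = 0.0495), a call lost on leaving out any of the 6 libraries, with the replicate block (adjusted p = 0.281), when only these 2 conditions were fitted (adjusted p = 0.531), with no filter (adjusted p = 0.0649) and with a pseudocount of 0.1 (adjusted p = 0.0539). Without IL-1ß replicate 3 and PRP lysate replicate 1 in the fit, the number called with PRP lysate against IL-1ß alone on this list was 7 in place of 4, beside 4.41% in place of 3.09% of all tested genes. The median of the list was 0.38 with PRP lysate, 0.33 with ACS and -0.33 with MSC-CM, beside 0.11, 0.13 and 0.16 over all tested genes.

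Of 22 regulators of IL10 transcription, 21 were tested and limma called 1: CEBPD, a transcription factor of acute inflammation. The shares of all tested genes called were 0.292% with IL-1ß over untreated macrophages, 3.09% with PRP lysate and 2.21% with ACS against IL-1ß alone. CEBPD was at 8.33, 8.78 and 10.3 CPM in the untreated libraries in ascending order and rose to 47.4 ± 4.19 CPM (SD, n = 3) with IL-1ß alone (log2 fold change 2.26, limma adjusted p = 0.000228), a call lost when only these 2 conditions were fitted (adjusted p = 0.0657). It was at 5.59, 6.02 and 8.38 CPM with PRP lysate (-2.67 against IL-1ß alone, limma adjusted p = 9.87e-06) and at 8.02, 8.07 and 8.40 CPM with ACS (-2.40, limma adjusted p = 7.72e-05). With MSC-CM it was at 42.0 ± 10.4 CPM and was not called. Across these conditions IL10 moved by at most -0.42 on the log2(CPM + 1) scale from its level with IL-1ß alone. A relation between CEBPD and IL10 was not tested. MAF, a factor known to drive IL10 in macrophages and T cells, was at 91.5 ± 40.1 CPM with IL-1ß alone and at 173 ± 47.2 CPM with MSC-CM, a log2 fold change of 0.98 that was not called (limma adjusted p = 0.705) and was 0.60 without IL-1ß replicate 3. In MSC-CM against untreated DESeq2 called MAF, while limma and edgeR did not, and limma called 0.662% of all tested genes there.

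**Figure D5:**
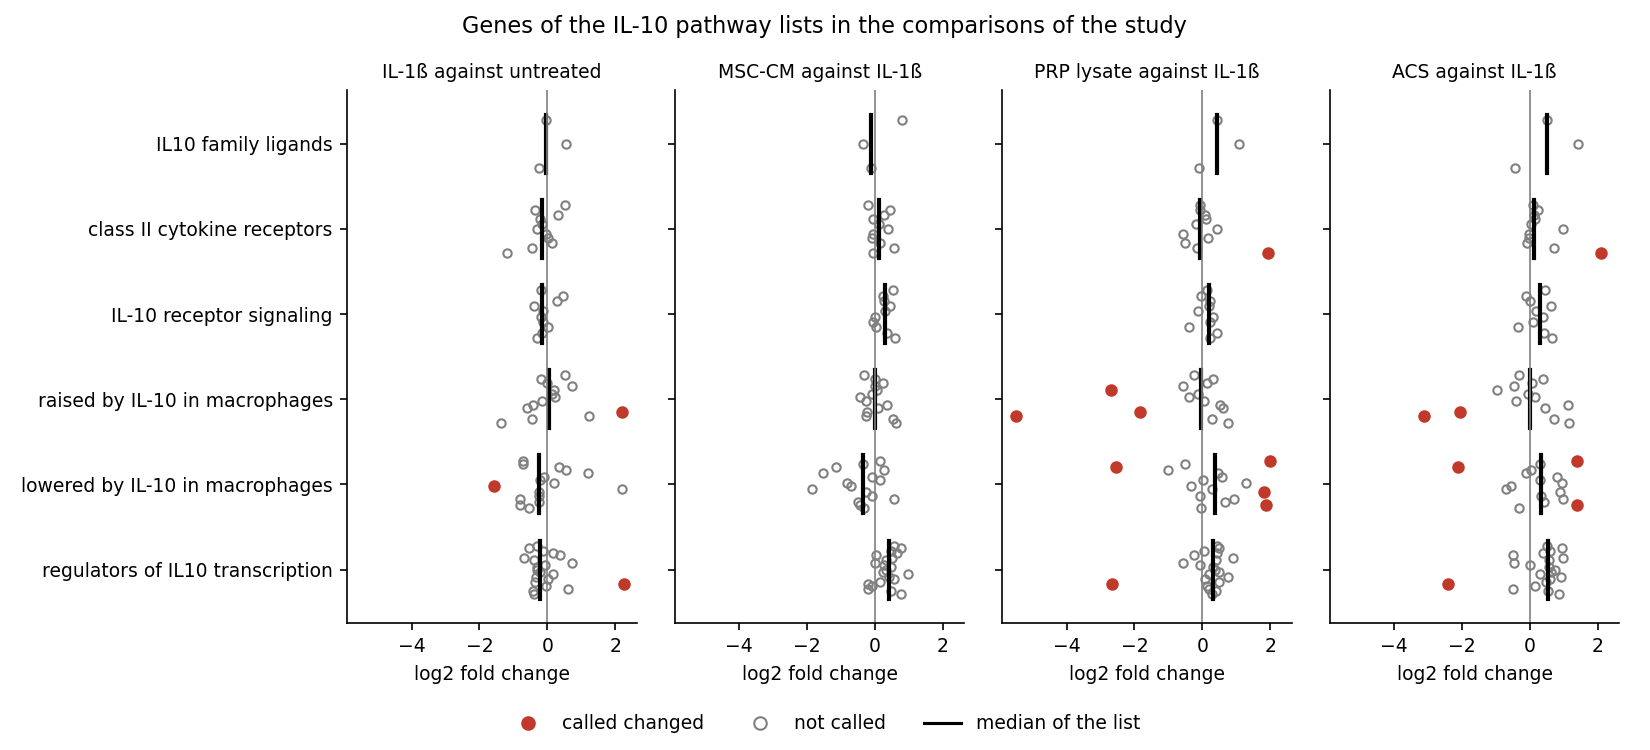
Log2 fold change (horizontal axes) of the tested genes of 6 lists related to IL-10 in 4 comparisons, with filled red points for genes called changed, open points for the rest and a black bar at the median of each list. Called genes with IL-1ß alone as the reference are seen with PRP lysate and ACS, where CD163 lies at -5.50 and -3.12, and none with MSC-CM.

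The members did not follow one another closely over the 15 libraries, with Pearson correlations of log2(CPM + 1) of -0.19 between IL10 and IL10RA, -0.11 between IL10 and IL10RB and 0.34 between IL10RA and IL10RB. Without IL-1ß replicate 3 and PRP lysate replicate 1 all 3 turned sign (0.25, 0.09 and -0.03). Each had other genes whose pattern was much closer. Among those most like IL10 were NDUFV3 (0.87), ATP5F1C (0.87), MRPS2 (0.86) and TNFAIP8L2 (0.84). Those most like IL10RA were PLPP3 (0.96), IFIT2 (0.95), MPEG1 (0.95), RNF13 (0.94) and CARMIL1 (0.94).

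For IL10RB they were LITAF (0.90), SLC6A8 (0.90), CTNNAL1 (0.89), TTC7B (0.88) and VAPA (0.88). These are the highest of 11628 correlations and describe libraries that share condition, depth and cell mixture. Without the same 2 libraries the correlation of IL10RA with CARMIL1 was 0.73 and with IFIT2 0.79, that of IL10RA with PLPP3 was 0.96, and those of IL10 with the genes named above were 0.83 to 0.90.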

How the data were processed

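Reads were trimmed with cutadapt, aligned to EquCab3.0 using STAR 2.7.3 and assigned to genes by HTSeq in Partek Flow, and the resulting CPM were deposited, per the submitters' processing notes and the study's methods. Whether counting used the strand is not given in the sources used here, and the deposited columns sum to 982495 to 991421 CPM. Division by the smallest step between values gave whole reads, within 0.05 read, for 100% of the 191129 values under 5000 reads.

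The main test was limma (3.58.1, R 4.3.3) with an intensity trend on log2(CPM + 1), fitted without pairing to all 15 libraries and the 11628 genes averaging 1 CPM or more, and adjusted by Benjamini-Hochberg within each comparison. The pseudocount of 1 understates changes of low genes. Members under the filter were given as reads with exact permutation tests. edgeR 4.0.16 (13675 genes) and DESeq2 1.42.0 were run on the recovered reads as alternatives, beside RLE and TMM factors, a pseudocount of 0.1, no filter, no fold threshold, only the 2 conditions compared, a replicate block and leaving out each library. The fit and the correlations without the 2 libraries that stood apart were chosen after seeing the data. Figures were drawn with matplotlib 3.10.9.

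Members and gene lists were chosen with earlier results of these data known, and the lists were written from general knowledge. Named were all members, the ligands, receptors, JAK and STAT genes of the lists, for other lists at most 4 called genes with the largest change, the 5 genes most correlated with each tested member, and neighbouring genes. SOCS3, MAF and the other genes without a call were added after their values were seen. Some genes that this rule names are not reported here. The limma, edgeR and DESeq2 fits were first tested on simulated data, and the other steps were not. No 2 libraries of a condition agreed within sampling noise.

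Replicate numbers in the labels covered 12 libraries, and those of ACS carried none. Deviations from the condition means correlated over 0.1 in every same-numbered pair for PRP lysate and MSC-CM only (0.63, 0.26 and 0.42), and in 11 of all 18 pairs.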

Additional observations from a re-analysis of the deposited data

How the results depend on the processing

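The number of members called was 0 in all 168 recomputed counts, the replicate block included, where it was 0 as well. Of 529 recomputed log2 fold changes of members 505 kept their sign, 24 turned it and 0 became called. Sign changes were not possible with no filter, no fold threshold, only the 2 conditions compared or the replicate block, which keep the difference of means. IL10RA turned with RLE, TMM and DESeq2 for MSC-CM against IL-1ß (-0.0402, -0.00882, -0.0419) and with RLE, TMM, DESeq2 and edgeR for ACS against IL-1ß (-0.089, -0.068, -0.091, -0.077). Leaving out 1 library gave ranges across 0 for IL10RA in IL-1ß against untreated (-0.27 to 0.026), MSC-CM against IL-1ß (-0.050 to 0.25), ACS against IL-1ß (-0.15 to 0.15) and MSC-CM against untreated (-0.098 to 0.040). It did so for IL10RB in MSC-CM against IL-1ß (-0.13 to 0.0060) and for IL10 in MSC-CM against IL-1ß (-0.23 to 0.0070), PRP lysate against IL-1ß (-0.23 to 0.021) and PRP lysate against MSC-CM (-0.11 to 0.14). Without IL-1ß replicate 3, IL10RA was at 0.026, -0.050 and -0.15 in the first 3 of these comparisons, and IL10 at 0.0070 for MSC-CM against IL-1ß. Without PRP lysate replicate 1, IL10 was at -0.11 for PRP lysate against MSC-CM. Each of these 5 differences involves only 1 of the libraries that stood apart, so leaving out both gives the same value. The cause of these turns was not tested. Over the settings, the genes called of all tested ranged from 0 to 173 for IL-1ß against untreated (34 as reported, and 5 to 10 without any 1 of the untreated libraries or of IL-1ß replicates 1 and 2), from 0 to 2 for MSC-CM against IL-1ß (0), from 56 to 694 for PRP lysate against IL-1ß (359) and from 48 to 705 for ACS against IL-1ß (257, and 705 without IL-1ß replicate 1). They ranged from 167 to 491 for PRP lysate against MSC-CM (304), 53 to 323 for ACS against MSC-CM (143), 0 to 61 for ACS against PRP lysate (11), 5 to 223 for MSC-CM against untreated (77), 50 to 320 for PRP lysate against untreated (186) and 5 to 130 for ACS against untreated (43). These ranges leave out the fit without both libraries that stood apart. That fit called 562 genes for PRP lysate against MSC-CM, 324 for ACS against MSC-CM and 133 for ACS against untreated, each above its range. The depth limits IL19, IL20 and IL24, whose values are mostly under 10 reads.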
